A study of Homo sapiens with 2 samples.

Results

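WSTF, the product of BAZ1B, was mapped in SW620 cells, an established line from a lymph node metastasis of a human colorectal adenocarcinoma, by sequencing DNA pulled down with an antibody to the protein (ChIP-seq). The summits described here are those that lie more than 5 kb from the start and the end of every gene of any biotype in the RefSeq gene table. They number 252 of the 2697 summits in the single deposited list, or 9.34% (exact 95% interval 8.27 to 10.5). A summit is the 1 base of a peak at which the peak caller placed its maximum. The choice rests on position alone and not on any measured value.

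The series holds 2 samples of SW620 cells, one titled SW620 and one SW620-IP, with 1 sample of each and no further treatment in their labels. Knockdown of WSTF is named in the series title while the design text names overexpression, and the sources used here do not settle which applies to the list. The list names neither sample, so conditions could not be compared. The labels describe formaldehyde fixation, sonication and an antibody to WSTF, with input DNA as the control. The list holds no read counts and its depth is unknown. The intervals given cover counting error only, and the differences described below were not tested.

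WSTF carries a bromodomain and a PHD finger and pairs with the ATPase SMARCA5, which slides nucleosomes. The pair is known from replication foci and from transcription by several RNA polymerases. Positions far from gene ends include enhancers, which raise transcription from introns or from intergenic sequence, and alternative promoters, from which a gene starts shorter transcripts inside its outer limits. The gene table gives only the outer limits of each gene, so both kinds count as distal here. Starts inside genes were therefore read from a second RefSeq table. It gives 1 or more transcript starts for 27056 genes and none for the others, with 250 bases before and 50 after each start.

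Such a start was near many distal summits. Of the 245 on the 22 chromosomes in the start table, 80 (32.7%, 26.8 to 38.9) lay within 1 kb of an annotated start inside their host gene. Nearness to a start was more common in the rest of the list. There 1875 of 2374 summits (79.0%, 77.3 to 80.6) lay within 1 kb of a table start, outer starts included. The 7 distal summits on the remaining chromosome were left out of the values on starts. They were kept only where summits near a start were removed from the set. For these 80 summits the name distal holds against the outer limits of genes and not against transcript starts. To show what such places look like, the 250 bases before the start are given for the 5 highest-scoring distal summits that fell inside them. They come from the RefSeq table (GRCh38.p14), read 5′ to 3′ on the gene's strand, with the 21 bases centred on the summit in capitals. The start follows the last base printed. This set was chosen after the values were seen.
SLC16A3: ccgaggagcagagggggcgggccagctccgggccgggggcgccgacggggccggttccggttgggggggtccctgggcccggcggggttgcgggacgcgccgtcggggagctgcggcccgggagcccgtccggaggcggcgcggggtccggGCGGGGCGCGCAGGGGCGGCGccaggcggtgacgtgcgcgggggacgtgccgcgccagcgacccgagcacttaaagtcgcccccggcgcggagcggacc
SOD2: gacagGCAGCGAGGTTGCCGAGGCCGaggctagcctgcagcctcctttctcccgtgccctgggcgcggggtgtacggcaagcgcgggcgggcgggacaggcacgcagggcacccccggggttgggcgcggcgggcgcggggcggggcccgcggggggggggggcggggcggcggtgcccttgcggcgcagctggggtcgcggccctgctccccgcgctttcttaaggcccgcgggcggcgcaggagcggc
ANXA4: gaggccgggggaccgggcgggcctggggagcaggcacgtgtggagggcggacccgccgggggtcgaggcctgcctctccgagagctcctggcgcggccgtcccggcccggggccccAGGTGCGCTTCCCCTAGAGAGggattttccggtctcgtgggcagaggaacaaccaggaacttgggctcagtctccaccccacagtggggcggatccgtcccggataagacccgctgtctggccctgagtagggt
HSPA12A: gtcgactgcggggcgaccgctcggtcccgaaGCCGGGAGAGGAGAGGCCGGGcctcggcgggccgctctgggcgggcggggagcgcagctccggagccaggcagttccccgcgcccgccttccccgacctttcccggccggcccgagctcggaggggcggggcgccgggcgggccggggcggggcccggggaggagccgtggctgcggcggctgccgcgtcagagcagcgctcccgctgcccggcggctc
SSBP3: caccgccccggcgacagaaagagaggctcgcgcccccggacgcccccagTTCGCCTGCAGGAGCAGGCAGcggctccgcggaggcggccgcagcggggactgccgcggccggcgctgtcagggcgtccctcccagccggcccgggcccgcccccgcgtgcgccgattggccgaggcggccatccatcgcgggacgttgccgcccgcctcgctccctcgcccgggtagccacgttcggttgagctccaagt

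The stretch before the SLC16A3 start lies on the plus strand at chr17:82228792-82229041, and the one before the SOD2 start on the minus strand at chr6:159693242-159693491. The ANXA4 stretch is on the plus strand at chr2:69741884-69742133. The HSPA12A stretch at chr10:116742567-116742816 and the SSBP3 stretch at chr1:54406395-54406644 are both on the minus strand. All 5 are rich in G and C, from 71.6% of bases in ANXA4 to 83.2% in SLC16A3. Each also holds the GC box GGGCGG, the site of SP and KLF factors, on one strand or the other, 3 times in SLC16A3, ANXA4 and SSBP3, 5 times in HSPA12A and 6 times in SOD2. In SLC16A3 the nearest GC box was centred 6 bp from the summit base, and in ANXA4 79 bp from it.

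Start windows that held a distal summit were GC-rich in the median, though not all of them. There were 38 such windows of 300 bases, with a median GC content of 71.8% (69.3 to 75) and a lowest value of 54%, against 70.3% (70.0 to 71.3) in the 972 windows that held one of the other summits and 58.7% over all 34789 windows of the table. The ratio of observed to expected CpG, which is high in CpG islands, had a median of 0.885 (0.843 to 0.986) in the 38 windows, 0.905 in the 972 and 0.578 over all. The GC box was present in 32 of the 38 (84.2%, 68.7 to 94.0), in 84.9% of the 972 and in 44.9% of all windows. Windows at internal starts thus did not differ from those with other summits in these 3 measures beyond their intervals.

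Other short motifs, searched on both strands of the same windows, were less frequent. The CCAAT box (CCAAT) was present in 15 of 38 windows (39.5%, 24.0 to 56.6) against 33.4% of the 972 with other summits and 34.6% of all, and the E-box (CACGTG), bound by factors such as MYC and USF, in 6 (15.8%) against 13.5% and 7.24%. In the same order, the ETS site CCGGAAG was found in 5 (13.2%) against 23.1% and 10.2%, and GCATGCGC, a part of the NRF1 site, in 3 (7.89%) against 10.3% and 3.02%. For both, the 38 windows lay above all windows and below those with other summits, with counts too small to separate them. YY1 letters (GCCATNTT) were in 2 windows (5.26%) against 11.7% and 6.57%, and the cAMP response element TGACGTCA in 1 (2.63%) against 4.01% and 1.84%. The AP-1 letters TGANTCA, a motif common in enhancers, were in 1 (2.63%) against 3.50% and 7.69%. The TATA box (TATAAA) was in 0 of 38 (interval to 9.25%) against 2.67% and 11.6%. The low share of the TATA box was thus found in windows with other summits too. For the AP-1 letters the interval of the 38 windows (0.07 to 13.8%) included the share of all windows. Windows with other summits lay below that share. For YY1 and the cAMP response element, windows with other summits lay above all windows. These are matches of letters in a window and not binding sites.

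The position of distal summits relative to internal starts was narrow. Of the 80 summits within 1 kb of a start, 57 lay within 250 bp of it, 74 within 500 bp and 6 between 500 bp and 1 kb. A further 14 lay between 1 and 5 kb away, and 151 of the 245 were more than 5 kb from every start in the table. The median position was 10 bp upstream (an offset of -10, interval -72 to 105), with quartiles at -128.5 and 188.75. The summits fell on both sides, 38 downstream of the start and 42 upstream of it or, at CEP85L, exactly on it.

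**Figure D1:**
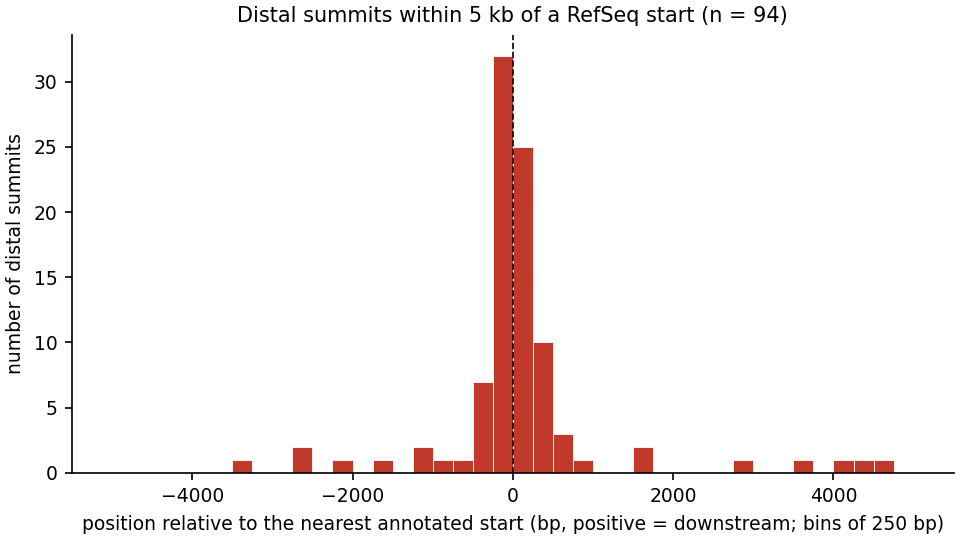
Number of distal summits by their position relative to the nearest start in the RefSeq start table, in bins of 250 bp, with positive positions downstream on the gene's strand. Of the 94 distal summits within 5 kb of a start, 57 lay within 250 bp of it, and few lay beyond 1 kb.

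Bases near such starts are rare away from gene ends. Positions within 1 kb of a table start made up 0.245% of all bases more than 5 kb from every gene end on the same chromosomes, and 0.528% of those inside protein-coding genes. The observed share of 32.7% was 133 times the first of these. That ratio also contains the larger share of distal summits than of bases inside protein-coding genes. The bases include assembly gaps and were not matched on GC content. All 80 summits were in protein-coding genes. There they made up 45.7% (38.2 to 53.4) of the 175 distal summits on the chromosomes covered, against 0.528% of bases. Each start belonged to a protein-coding gene around the summit. Intergenic summits could not lie near a start, since the rule keeps them more than 5 kb from every gene. Of the 8 in lncRNA genes 0 did (interval to 36.9%). For the hosts LOC107987011, LINC00395 and LOC102724701 among them the start table lists no start. Because the start table lists no start for 20 of the 167 host genes, the count of 80 is a lower limit for annotated starts. Among the 155 summits whose host gene has a start in the table, the share was 51.6% (43.5 to 59.7).

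Seen from the starts, the share with a summit was 3.76% at internal starts and 9.33% at the others. Of 3057 table starts more than 5 kb from every gene end, a summit lay within 1 kb of 115 (3.76%, 3.12 to 4.50). Of the 31732 other starts, it did so for 2960 (9.33%, 9.01 to 9.65). Several starts of a gene can lie near 1 summit, so the starts are not independent.

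The highest-scoring summits at internal starts lay in genes of varied function. Scores are the authors' values, read here as −log10 q, and they rank summits within the list. TUBA1C, which encodes an alpha-tubulin, held a summit with a score of 15.8 at chromosome 12 position 49265993, 911 bp downstream of an internal start and 8607 bp from the gene's outer end. SLC16A3, the gene of the lactate exporter MCT4, followed with 9.87, 89 bp upstream of its start. SOD2, the mitochondrial manganese superoxide dismutase gene, had 7.71, 235 bp upstream.

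The next 9 scored between 6.83 and 5.14. CEP164, needed for the formation of primary cilia, had 6.83, and the zinc finger gene ZFP1 6.74. ANXA4, an annexin that binds phospholipids with calcium, had 6.69, and the rhomboid protease gene RHBDD1 6.63. HSPA12A, a member of the HSP70 family, had 5.95 and SSBP3 5.86. CARS2, the mitochondrial cysteinyl-tRNA synthetase gene, scored 5.37, followed by ACACA with 5.19, the acetyl-CoA carboxylase gene that opens fatty acid synthesis. TAB2, an adaptor of the kinase TAK1, had 5.14. In these 12 the summit lay between 44 and 911 bp from the start.

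Some of these starts lay deep inside long genes. In KLF12, a transcriptional repressor gene of 619957 bp, the summit was 97391 bp from the nearest gene end and 124 bp upstream of a start, with a score of 2.36. In MACF1, which links microtubules to actin, it was 78127 bp from an end and 244 bp upstream of a start (score 2.35). AFF1, a scaffold of the super elongation complex, had one 57017 bp from an end and 144 bp upstream of a start (3.17), and TNS3, a tensin of focal adhesions, one 45131 bp from an end and 17 bp downstream (3.48). Over the starts used in their own host gene the median distance to that gene's outer start was 21689 bp (16143 to 36527, n = 79).

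By place, distal summits were mostly inside protein-coding genes. These held 177 of the 252 (70.2%, 64.2 to 75.8), and 41.3% of the bases more than 5 kb from every gene end. Intergenic sequence held 65 (25.8%, 20.5 to 31.7) and 47.4% of those bases. The remaining 10 (3.97%, 1.92 to 7.18) were in lncRNA genes alone, while non-coding genes alone held 11.3% of the bases. The bases include assembly gaps and were not matched on GC content. Exons were not annotated in the tables used, so summits inside a gene could not be split into intron and exon.

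**Figure D2:**
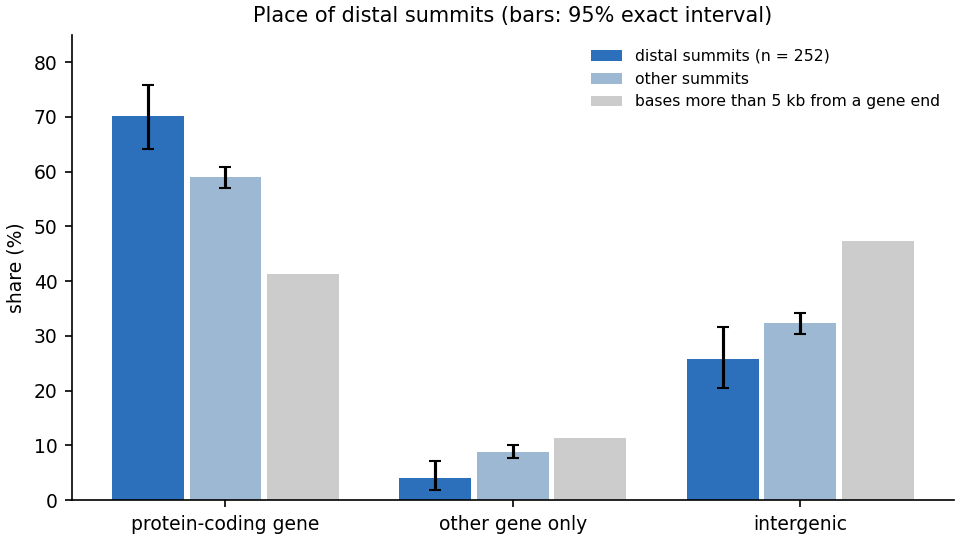
Share of distal summits, of the other 2445 summits and of all bases more than 5 kb from every gene end that lie in a protein-coding gene, in another gene only or between genes, with exact 95% intervals for the summits. Protein-coding genes held 70.2% of distal summits and 41.3% of the bases.

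When summits within 5 kb of a table start were also left out, 158 remained, of which 52.5% (44.4 to 60.5) were in protein-coding genes and 41.1% (33.4 to 49.2) were intergenic. The 158 include the 7 on chromosome 8, for which no starts were at hand. Leaving out summits near starts can remove those inside genes only, so it lowers their share by construction. The shares of bases were not recomputed for it. That choice was made after the starts had been examined.

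The distance to the nearest gene end had a median of 11730 bp (10783 to 14021) and quartiles of 7886 and 21041 bp. Of the 252 summits, 97 lay between 5 and 10 kb, 88 between 10 and 20 kb, 52 between 20 and 50 kb, 10 between 50 and 100 kb and 5 beyond 100 kb. The nearest end belonged to a protein-coding gene for 125 summits, a lncRNA gene for 74, a pseudogene for 34 and a miRNA gene for 14. Where the strand of that gene was known, 71 of 149 nearest ends (47.7%, 39.4 to 56.0) were 5′ ends, so neither end of the gene was favoured beyond counting error.

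The 6 summits nearest the 5 kb limit scored between 1.96 and 4.85. Just above it lay those inside UVSSA (5013 bp, score 4.67), the isoprenoid enzyme gene IDI1 (5015 bp, 4.44) and the sorting nexin gene SNX12 (5020 bp, 4.12), each within 184 bp of an internal start of the gene. Just below it lay a summit inside ZNF19, 4983 bp downstream of its start (2.92), and an intergenic one 4977 bp from NIPSNAP2 (1.96). Another lay inside GALNT2, 4954 bp from a small nuclear RNA gene (4.85). The last had an offset of -385 bp from a GALNT2 start.

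The farthest summit lay in ARID1B, which encodes a large subunit of BAF remodellers, at chromosome 6 position 157021895, 188884 bp from the nearest gene end and with a score of 4.54. In SGMS1, a sphingomyelin synthase gene on chromosome 10, a summit lay 112819 bp from an end (5.12). The other 3 beyond 100 kb were intergenic. They were on chromosome 9 beside the centromeric heterochromatin, 174693 bp from the pseudogene CNTNAP3P4 (2.36), on chromosome 5, 114603 bp from a lncRNA gene and 524717 bp from ADAMTS16 (3.13), and on chromosome 8, 114540 bp from LINC02855 (3.72).

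**Figure D3:**
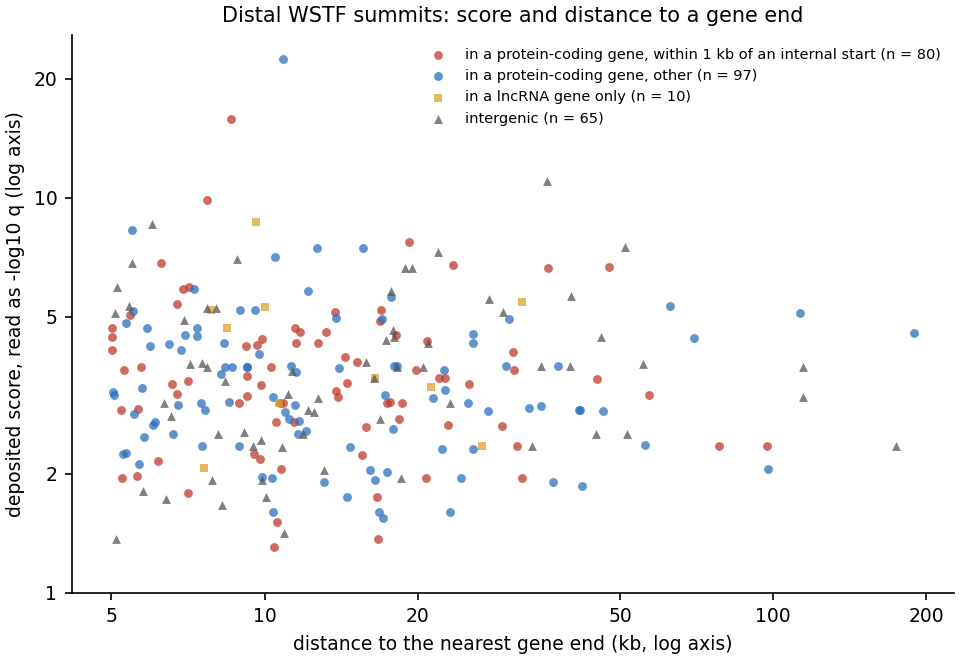
Score against distance to the nearest gene end for the 252 distal summits, both on log axes, by place and by nearness to an internal start. Summits at internal starts spread over distances from 5013 to 97391 bp, and the highest score, 22.4, lay 10849 bp from a gene end.

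Scores of distal summits had a median of 3.39 (3.13 to 3.70) and ran from 1.308 at HAS3 to 22.4 at VRK3. Summits within 1 kb of a gene end had a median of 3.72 (3.72 to 3.78), and those at 1 to 5 kb 3.69 (3.40 to 3.83). A score of 5 or more was reached by 47 distal summits (18.7%, 14.04 to 24.0) and by 26.5% (24.8 to 28.3) of the 2445 others. A score of 10 or more was reached by 3 (1.19%, 0.25 to 3.44) and by 1.60% of the others. The intervals at 5 do not overlap, with the distal share the lower one, while those at 10 do. Among summits at 1 to 5 kb alone, 27.1% (21.9 to 32.8) reached 5, an interval that overlaps the distal one.

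Scores near internal starts overlapped with those elsewhere. The median was 3.42 (3.04 to 3.72) for the 80 summits at internal starts and 3.23 (3.02 to 3.72) for the 165 others on the chromosomes covered. Intergenic summits had a median of 3.72 (3.02 to 3.81), and those in protein-coding genes 3.27 (3.02 to 3.66). These intervals overlap. A score of 5 or more was reached by 26.2% (16.0 to 38.5) of intergenic and 14.7% (9.83 to 20.8) of protein-coding summits, again with overlapping intervals.

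**Figure D4:**
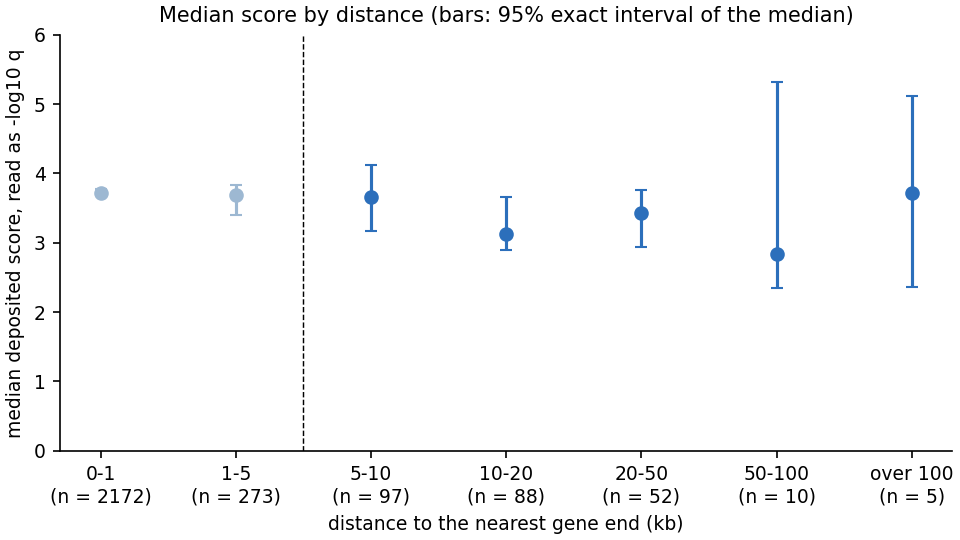
Median score with its exact 95% interval by distance to the nearest gene end, with summits within 5 kb to the left of the dashed line. The median was 3.66 at 5 to 10 kb, 3.13 at 10 to 20 kb and 3.43 at 20 to 50 kb, and the 2 farthest bins hold 10 and 5 summits.

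Inside protein-coding genes, 97 distal summits were not placed at a start, 2 of them on chromosome 8. Others lay in hosts without a start in the table, such as LOC124902693, ITPR2 and HSD17B12, and so could not be placed at one of their host. The strongest of all distal summits was among the 97. It lay in VRK3, a member of the vaccinia-related kinase family, at chromosome 19 position 49987317, 10849 bp inside the gene from its 3′ end (gene 49976468 to 50025372). Its score was 22.4, and the nearest other summit, 38751 bp away, lay within 1 kb of the outer 5′ end of VRK3. SLC16A3 held a further summit of 8.29, 1045 bp upstream of a further internal start. LOC124902693 on chromosome 11 and GRK1 on chromosome 13 each had one with a score of 7.48, and RARG, the retinoic acid receptor gamma gene, had one of 7.08, 10507 bp from its 5′ end.

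Lower in this class were NCOA4, the receptor for ferritin autophagy (5.86), STARD13 (5.82), ITPR2, an inositol trisphosphate receptor gene (5.59), and HSD17B12, an enzyme gene of fatty acid elongation (5.32). Along the 155 host positions with a known strand the median summit lay 46.8% of the way from the gene's start (40.0 to 53.6). In bins of 20% of the gene's length from its start there were 34, 30, 46, 29 and 16 summits. The rule leaves out 5 kb at either end, which takes a larger share of short genes.

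The 177 summits fell in 167 protein-coding genes, with both genes counted for the 2 summits that lie in overlapping ones. These are 1.17% of the 14315 that are longer than 10 kb and so can hold a position more than 5 kb from both their ends. Host genes were long, with a median of 84716 bp (69772 to 105516) against 42125 bp for all such genes. Longer genes offer more such positions. Of the 167, 29 (17.4%, 11.9 to 24.0) were also marked by a summit at an outer end, within 1 kb of it. The background was 12.5% of protein-coding genes longer than 10 kb and 11.6% of all protein-coding genes, so the share of hosts was close to it. Besides VRK3, SLC16A3, SOD2 and RARG, these hosts included NCOA4, ITPR2, CARS2 and SGMS1.

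Among the 78 genes with a distal summit at an internal start of their own, 12 (15.4%, 8.21 to 25.3) also had one at an outer end, against the same 12.5%. They included LRRC56 and HOOK2, with scores of 4.67 and 4.57 for the internal summit. In the other 66 the summit marked an internal start and no outer end. The outer end is only the farthest annotated limit of a gene. Which start is the main one in SW620 cells was not measured, so an internal start need not be a minor one.

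A total of 12 host genes held 2 distal summits each. In TUBA1C they were 1254 bp apart with scores of 3.36 and 15.8, both within 1 kb of the same start. In ARHGAP23 they were 615 bp apart with scores of 3.53 and 4.38. SLC16A3 (9.87 and 8.29, 2234 bp apart), CDC25B, a phosphatase gene that activates CDK1 (2.24 and 3.58, 1339 bp apart), SLC12A7, a potassium-chloride cotransporter gene (4.48 and 1.60, 1373 bp apart), and HAS3, a hyaluronan synthase gene (2.57 and 1.308, 1600 bp apart), had 1 summit within 1 kb of an internal start and 1 beyond. The same held for ADAP1 (3.76 and 3.02, 9020 bp apart) and for TNK2, a non-receptor tyrosine kinase gene (5.18 and 4.28, 18303 bp apart).

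The other 4 had none within 1 kb of a table start, and for ITPR2 and HSD17B12 the table has no start. These were ITPR2 (5.59 and 4.96, 46453 bp apart), HSD17B12 (5.32 and 3.76, 36596 bp apart), SEPTIN9, a cytoskeletal septin gene (4.67 and 3.23, 20523 bp apart), and GSE1 (3.11 and 2.88, 54029 bp apart). All 7 genes whose summits were less than 10 kb apart thus had at least 1 at an internal start, as did TNK2 among the 5 wider pairs.

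Intergenic distal summits lay a median of 21211 bp (16896 to 30581) from the nearest protein-coding gene. Of the 65, 17 were within 10 kb of one and 7 more than 100 kb away. Where the strand was known, 20 of 43 (46.5%, 31.2 to 62.3) were on the upstream side, so the sides were alike within counting error. For 15 of the 65 the nearest protein-coding gene carried a summit of its own at an outer end (23.1%, 13.5 to 35.2), against 11.6% of all protein-coding genes. Counted by gene, as the background is, it was 14 of 61 distinct nearest genes (22.95%, 13.2 to 35.5). Which gene a distal summit acts on, if any, is not given by nearness.

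The intergenic summit with the highest score, 11.0, lay at chromosome 1 position 143263542, at the edge of the centromeric heterochromatin. It was 35976 bp from LOC101929814, 638844 bp from the histone gene H3-7 and 3908893 bp from the next summit. No filter for repeats or poorly mapped regions was applied here. Whether poor mapping contributed to this summit was not tested. The same limit holds for the summit near CNTNAP3P4 and the pair in LOC102724701. Next came a summit of 8.59 at chromosome 11 position 2179151, 7336 bp from TH, the tyrosine hydroxylase gene. NKD1, an antagonist of Wnt signalling, was 80344 bp from a summit of 7.53.

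The following 3 lay nearer to a gene. DDIT4, an inhibitor of mTORC1 induced by stress, had one 21976 bp downstream with a score of 7.30, and a second one 13344 bp upstream with 2.34. SP1, the gene of the factor that binds GC boxes, had one 8828 bp upstream with 6.99, and 9260 bp from it lay a summit of 7.28 near the SP1 start. BHLHE41, a circadian repressor gene, had one 5489 bp downstream with 6.85. Summits near SP1, DDIT4 and TCF3 (19526 bp upstream, 6.63) were among the 15 whose nearest gene also had a summit at an end, while BHLHE41, TH, NKD1 and H3-7 had none.

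A few genes had several intergenic summits nearest to them. TH was the nearest protein-coding gene of 3, with scores of 8.59, 5.27 and 5.13 at 7336, 9333 and 30809 bp. FGF3, a fibroblast growth factor gene, was nearest to 2, upstream at 21211 and 48477 bp with scores of 2.88 and 3.76. DDIT4 was the remaining one.

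The 10 summits in lncRNA genes alone included 2 pairs. In LINC00824 on chromosome 8, summits of 8.70 and 5.20 lay 1777 bp apart, with MYC as the nearest protein-coding gene at 812088 bp. In LOC102724701 on the short arm of chromosome 21, summits of 5.29 and 3.02 lay 643 bp apart. Others were in SPRY4-AS1 (5.44), SAT1-DT (3.50) and LINC00395 (3.32), the last 9365716 bp from any other summit.

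Spacing of distal and other summits overlapped. The nearest other summit of the list was a median of 90038 bp away (71859 to 114533), against 106950 bp (98752 to 116239) for the other summits. The nearest other distal summit was a median of 1168420 bp away. Another summit lay within 10 kb of 31 distal summits (12.3%, 8.51 to 17.0), against 10.4% (9.25 to 11.7) of the others. Within 100 kb it was 136 (54.0%, 47.6 to 60.2) against 48.1% (46.1 to 50.1). The intervals overlap for each of these.

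Of the 31, 20 formed 10 pairs of distal summits, namely those in SLC12A7, ADAP1, TUBA1C, HAS3, ARHGAP23, SLC16A3, CDC25B, LINC00824 and LOC102724701 and the pair near TH, 1997 bp apart. The other 11 had only a summit within 5 kb of a gene end as their neighbour. Examples were HLCS, the gene of the enzyme that attaches biotin, where the distal summit scored 1.98 and one at the gene's end, 9296 bp away, 10.8, and NCOA4, where they scored 5.86 and 1.98 and were 7194 bp apart. At SP1 the scores were 6.99 and 7.28 and at CARS2, 7503 bp apart, 5.37 and 5.63.

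Every chromosome that carried summits carried at least 1 distal summit. Chromosome 11 had 28, of which 13 were intergenic, chromosome 16 had 23, and chromosomes 5 and 10 had 17 each. As a share of the chromosome's summits they ranged from 1.75% (1 of 57, 0.04 to 9.39) on chromosome 15 to 16.0% (17 of 106, 9.63 to 24.4) on chromosome 5 and 16.0% (8 of 50, 7.17 to 29.1) on chromosome 4. The interval of every chromosome but 5 included the overall 9.34%. Chromosome 17 had 16, all in protein-coding genes and 6 of them at internal starts.

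**Figure D5:**
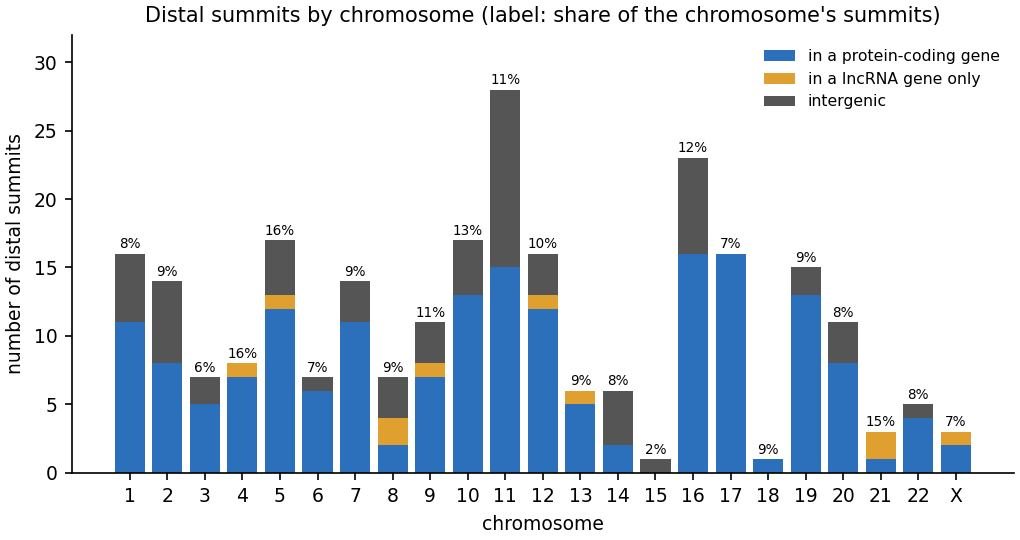
Number of distal summits on each chromosome by place, with the share of the chromosome's summits that were distal written above each bar. Chromosome 11 held 28 and chromosome 16 held 23, while chromosomes 15 and 18 held 1 each.

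Host genes were also counted in 12 lists of genes grouped by function. Of the 688 listed genes longer than 10 kb, 11 (1.60%) held a distal summit, against 1.17% of all such protein-coding genes. Wnt signalling had 2 of 44, the co-activator BCL9 (2.72) and the co-receptor LRP5 (1.87). Adhesion genes had 2 of 56, the receptor phosphatase PTPRJ (2.94) and TNS3 (3.48). Counts this small do not separate a list from the background.

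A single gene was hit in each of 4 lists. ARID1B was the 1 of 28 among WSTF and ISWI complex partners, and BAZ1B and SMARCA5 held no distal summit. DGKZ, a diacylglycerol kinase gene (3.96), was the 1 of 64 in growth factor signalling, ZBTB7A, a transcriptional repressor gene (2.83), the 1 of 60 among intestinal transcription factors, and EXOC6, an exocyst subunit gene (3.50), the 1 of 65 in membrane trafficking. In DGKZ, EXOC6 and TNS3 the summit lay within 1 kb of an internal start. A further 5 lists had none. These included histone-modifying enzymes and remodellers (0 of 76) and transforming growth factor, Notch and Hippo signalling (0 of 47). The rest were synaptic adhesion, ion channel and receptor genes (0 of 82) and common fragile site genes (0 of 34). The last was DNA replication, damage response and cell cycle (0 of 76). The lists are not complete: CDC25B, RAD52, CHD1L and the ion channel genes KCNH2 and CACNA1H held distal summits but are in none of them. A value of 0 thus speaks of the listed genes only.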

How the data were processed

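ChIP-seq of SW620 was represented by 1 deposited list of summits; it names neither of the 2 samples. The submitters' processing notes list Bowtie2 2.4.4, MACS2 2.2.7.1, Trimmomatic 0.39 and hg38. Input DNA served as the control for peak calling, per the labels' design text. Whether replicates were pooled is not stated there. The deposited score was read as −log10 of the q-value, since its lowest value is 1.308, just above the 1.30 of the usual threshold. Depth is unknown.

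Summits were compared in Python 3.11.15 (pandas 2.3.3, SciPy 1.17.1) with 59094 RefSeq genes of GRCh38.p14 on chromosomes 1 to 22 and X, and with 34789 distinct start windows. Overlapping start windows agreed in sequence in 1983 of 1983 pairs. All protein-coding genes around a summit count as hosts, and positions along a host use the shortest. Shares carry Clopper-Pearson and medians order-statistic 95% intervals. No resampling was made. The code was tested on simulated positions.

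Named genes are the hosts or nearest genes of the 15 highest, 6 highest intergenic, 5 farthest and 3 nearest summits either side of the limit, genes or pairs with 2 distal summits, and listed hosts. As no genome was used, the printed sequences are those of start windows. They, the genes at internal starts and the other genes named were chosen after their values were seen. Summits, lists and rules were chosen with earlier results of these data known. The result of 1 gene list is not reported here.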

Additional observations from a re-analysis of the deposited data

How the results depend on the processing

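Of 89 alternative values, 58 stayed within the interval of the reported value or, for counts, within 1.5 times of it. The share of distal summits near a table start, 32.7%, did so in 11 of 12 alternatives. It was 39.4% when ends of protein-coding genes alone counted. Where the ends of some genes did not count, the outer starts of those genes could enter this share, so it is not one of internal starts alone. With a limit of 2 kb there were 380 summits with a median distance of 7789 bp, 51 of them with another summit within 10 kb. With 10 kb there were 155 in 105 host genes (17992 bp, 8 close), and with 20 kb 67 in 43 host genes (32126 bp, 0 close). Ends of protein-coding genes alone gave 447 summits, 55.5% in protein-coding genes, at a median of 17992 bp. Summits at or above the median score of the list numbered 108 in 68 genes, with a median score of 4.68 and 9 close to another. Those scoring 5 or more numbered 47 in 25 genes, with 55.3% in protein-coding genes, 36.2% intergenic, a median distance of 10507 bp, a median score of 5.86 and 8 close. Leaving out summits within 5 kb of a table start, chosen after seeing the data, gave 158 in 81 genes. Of these, 52.5% were in protein-coding genes, 41.1% intergenic and 13 close. It can remove summits inside genes only, and it kept those on chromosome 8, which has no starts in the table. These settings change which or how many summits enter. Leaving out pseudogenes or LOC symbols, or merging summits within 1 kb, moved none of the values beyond the limits given above. Without LOC symbols there were still more summits, 322 in 200 host genes at a median of 13892 bp. The 3 highest scores of the list are not distal, so leaving them out removed no distal summit and tests nothing here. The unchanged values of that setting are nevertheless counted in the 58 of 89 and the 11 of 12. No paired analysis was possible because the summits form 1 list without replicates. Depth is unknown, so lack of a summit does not mean lack of the protein.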
